A study of Mus musculus with 9 samples.

Results

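Multiciliated cells carry many motile cilia, each built on its own basal body, and a small set of regulators turns a progenitor into such a cell. The regulators described here are 9 genes chosen by name as known master regulators of this fate and of centriole amplification: Gmnc, Mcidas, Trp73, Myb, Ccno, Deup1, Foxj1, Rfx2 and Rfx3. All 9 had a row among the 18329 genes of the deposited expression table, and all 9 passed a filter on low values. They were followed through 9 RNA-seq libraries of sorted mouse neuroglial progenitors from the TVZ, the germinal zone along the third ventricle of the brain.

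The progenitors came from untreated mice at postnatal day 1 on a C57/BL6 background. All of them carried Nestin-CFPnuc, a transgene in which the Nestin promoter drives cyan fluorescent protein (CFP), so that CFP reads the activity of that promoter and not the Nestin protein. Sorting on CFP and on CD133, the membrane protein encoded by Prom1, gave the CD133+, CD133+Nestin+ and Nestin+ populations, with 3 libraries of each numbered 1 to 3 by the sort. The labels also give passages 1, 2 and 3 to sorts 1, 2 and 3, so the libraries of a population differ in passage as well as in sort, and a fit with the sort number as a block is also one with the passage number. The labels do not say whether a population sorted on 1 marker lacked the other, and they do not tell whether the libraries of a population stem from different animals or cultures. The p-values therefore reflect only the scatter among these libraries, part of which may be technical. The question that the design poses for these genes is how far the sorted populations differ in their expression.

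Commitment to the multiciliated fate runs through a cascade. The geminin family proteins Gmnc and Mcidas have no DNA-binding domain of their own and switch on target genes by joining E2F factors, and they act above Trp73, Myb, Foxj1 and the RFX factors. Ccno and Deup1 serve the amplification of centrioles that become basal bodies, much of it on deuterosomes, while Foxj1, Rfx2 and Rfx3 activate the genes of the motile axoneme and of ciliary transport. In the brain this programme makes the ependymal cells that line the ventricles, which are known to carry CD133 on the surface that faces the ventricle and which mature after birth, and the epithelium of the choroid plexus.

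Levels are given in CPM, the usual sequencing unit that sets a gene's reads against all reads of its library. This unit is not stated and was read off the deposited values. In that unit 1 read corresponded to 0.0286 to 0.0344 CPM, which places the libraries at 29.1 to 35.0 M reads. The sorted markers followed their labels: Prom1 stood at 146 to 182 CPM in CD133+ libraries, 116 to 181 CPM in CD133+Nestin+ libraries and 39.3 to 58.1 CPM in Nestin+ libraries, and Nes at 39.5 to 57.3, 172 to 212 and 157 to 195 CPM in the same order. Differences were tested on log2(CPM + 1) with limma, a linear model with variances moderated over genes, fitted to all 3 populations and 16143 genes. A gene is called where its p-value adjusted by the Benjamini-Hochberg method over those genes is under 0.05, and errors of log2 changes are standard errors (SE). In bulk libraries of this kind, fewer cells that express a gene and less RNA per cell cannot be told apart.

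The summed level of the 9 regulators separated the 3 populations. It lay between 1040 and 2242 CPM in CD133+ libraries, between 584 and 697 CPM in CD133+Nestin+ libraries and between 166 and 171 CPM in Nestin+ libraries. In Nestin+ against CD133+ cells, 8 of the 9 regulators fell and none rose, where limma called 11.9% of all tested genes (9.42% lower and 2.45% higher). The split of these calls over all genes, 395 higher and 1520 lower, became 587 and 1300 with median centring and 696 and 1370 with quantile normalization. When CD133+Nestin+ cells were set against CD133+ cells, 3 of the 9 fell and none rose, where 2.42% of all genes were called (2.12% lower and 0.297% higher). Against Nestin+ cells, 7 of the 9 rose in CD133+Nestin+ cells and none fell, where 3.13% of all genes were called (2.87% higher and 0.254% lower). The median log2 change of the 9 was -3.33, -0.65 and 2.24 in these comparisons, and that of all tested genes was -0.02, -0.06 and -0.04. The 3 comparisons share their groups and are not independent of each other. Since the 9 genes were chosen with earlier results of these data known, their counts beside the shares of all genes describe them only. A single F test over the 3 populations called 7 of the 9, all but Gmnc and Rfx3, where 9.50% of all genes were called.

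**Figure D1:**
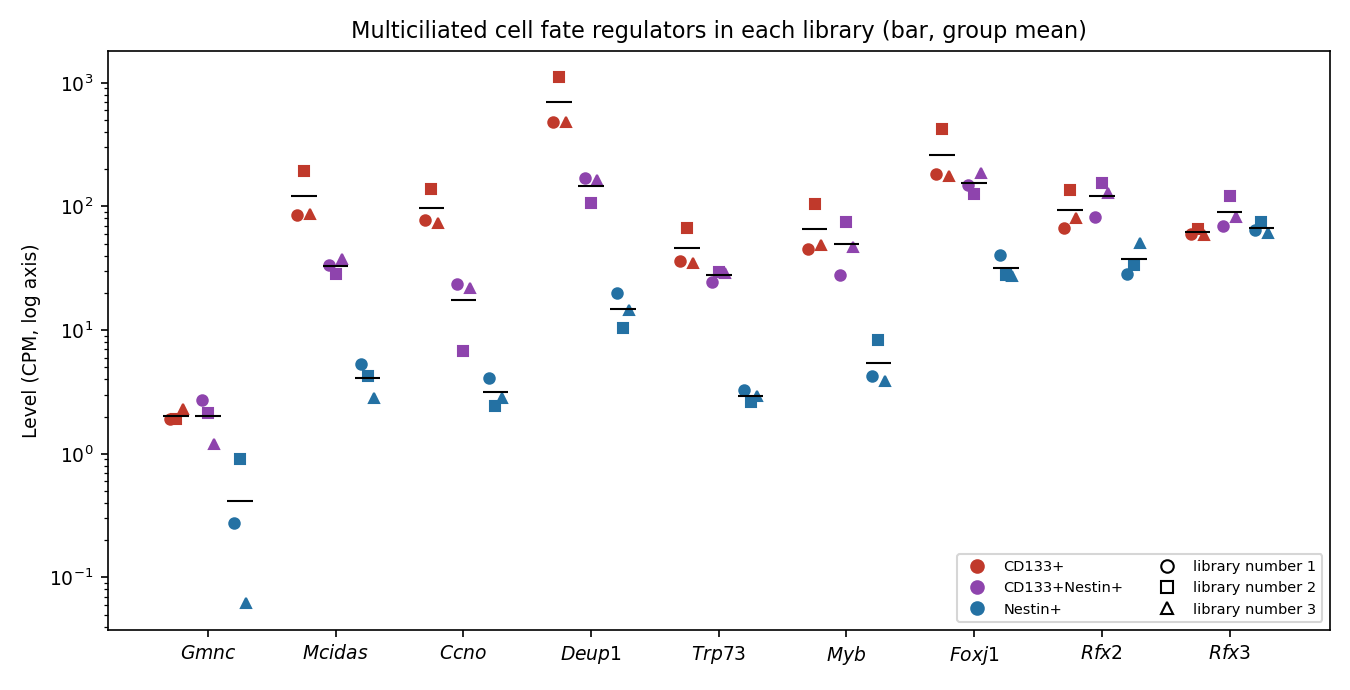
Level of each regulator in every library, in CPM on a log axis; colour marks the sorted population, the symbol marks the library number and the bar is the mean of 3 libraries. Nestin+ libraries lie lowest for every gene except Rfx3, and CD133+ library 2 lies highest of all 9 libraries for Mcidas, Ccno, Deup1, Trp73, Myb and Foxj1.

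Gmnc (chr16:26913553-26991652 in GRCm38), the factor that opens the cascade, was the scarcest of the 9. It measured 1.91, 1.91 and 2.29 CPM in CD133+ libraries 1, 2 and 3, and 2.72, 2.15 and 1.20 CPM in CD133+Nestin+ libraries. Nestin+ libraries gave 0.275, 0.913 and 0.0618 CPM, or an estimated 7.99, 27.9 and 2.00 reads, the last below the 3 reads (0.0927 CPM in that library) taken as the floor of detection, which covers counting error only. All 3 Nestin+ values lay below those of both other populations, whose values overlapped. The Nestin+ mean was 20.5% of the CD133+ mean, and the CD133+Nestin+ mean was 4.86-fold the Nestin+ mean. The 1 CPM added before taking log2 shrinks the log2 changes of a gene this scarce. The log2 change from CD133+ to Nestin+ was -1.14 ± 0.33 (limma adjusted p = 0.0443), and between CD133+Nestin+ and CD133+ it was -0.04 ± 0.33 with a 95% interval of -0.75 to 0.68 (0.092 with median centring and 0.10 with quantile normalization). CD133+Nestin+ cells did not pass the test against Nestin+ cells (log2 change 1.11 ± 0.33, limma adjusted p = 0.117). The Nestin+ call ended with median centring or quantile normalization (limma adjusted p = 0.0810 and 0.0882), and when any of 5 single libraries was left out (each CD133+ library, and Nestin+ libraries 1 and 3), with limma adjusted p from 0.0297 to 0.174 over such fits.

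Mcidas, which lies downstream of Gmnc and carries the same geminin-type coiled coil, was far more abundant, also per exon length. Its level was 85.7, 195 and 86.6 CPM in CD133+ libraries, 33.8, 28.6 and 37.3 CPM in CD133+Nestin+ libraries and 5.32, 4.24 and 2.84 CPM in Nestin+ libraries. The 3 populations did not overlap and stood in the order CD133+, CD133+Nestin+, Nestin+. The CD133+Nestin+ mean was 27.2% of the CD133+ mean, and the Nestin+ mean was 3.38% of it. On the log2 scale, Nestin+ lay 4.50 ± 0.35 below CD133+ (change -4.50, limma adjusted p = 5.4e-05) and CD133+Nestin+ changed by -1.75 ± 0.35 against CD133+ (limma adjusted p = 0.0236). The latter call ended without CD133+ library 2 or 3 or CD133+Nestin+ library 2 or 3, with a highest limma adjusted p of 0.0784 and log2 changes from -1.94 to -1.36.

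Mcidas, Ccno and Cdc20b are neighbours on mouse chromosome 13, a gene cluster that is known to be active in multiciliated cells. In the GENCODE M21 annotation of GRCm38, Ccno lies at chr13:112987802-112990777, Mcidas at chr13:112993845-113000394 and Cdc20b at chr13:113035111-113091195, all on the + strand. Exons of Cdc20b share 197 bases with the antisense gene 4930563N14Rik. A gap of 3067 bases with no coding gene separates Ccno from Mcidas, and 34716 bases separate Mcidas from Cdc20b. All 3 fell in both Nestin+ and CD133+Nestin+ cells against CD133+ cells and rose in CD133+Nestin+ against Nestin+ cells.

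Promoter sequences of genes that fell are shown with the X-box, the element bound by RFX factors, since Rfx2 and Rfx3 are regulators here and Rfx3 did not fall with them. RefSeq promoters of GRCm38.p6, from 250 bases before to 50 bases after the start site, were found for 8 of the 9 regulators (11 promoters) and searched on both strands for this motif, taken as GTNNCC and GNNAC with NNN between them (N is any base). The 3 regulators with a match, in 1 promoter each, were Ccno, Deup1 and Rfx2. Counted per promoter, 4.62% of all 32851 promoters of this length had one. Each match read as the pattern on both strands at the same place. Capitals mark the match in the 250 bases upstream of the start of Ccno (chr13:112987552-112987801, + strand), of Deup1 (chr9:15627847-15628096, - strand) and of Mcidas, which has none (chr13:112993618-112993867, + strand).
Ccno: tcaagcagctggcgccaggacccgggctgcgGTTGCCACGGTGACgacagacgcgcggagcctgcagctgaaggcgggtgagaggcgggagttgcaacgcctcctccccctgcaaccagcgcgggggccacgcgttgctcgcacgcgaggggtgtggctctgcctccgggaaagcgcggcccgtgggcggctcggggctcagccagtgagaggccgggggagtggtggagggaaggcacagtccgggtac
Deup1: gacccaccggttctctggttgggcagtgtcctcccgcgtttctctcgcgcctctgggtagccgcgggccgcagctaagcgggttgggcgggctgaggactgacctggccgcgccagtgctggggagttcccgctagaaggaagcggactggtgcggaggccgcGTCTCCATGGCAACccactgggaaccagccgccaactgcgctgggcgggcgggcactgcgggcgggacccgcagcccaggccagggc
Mcidas: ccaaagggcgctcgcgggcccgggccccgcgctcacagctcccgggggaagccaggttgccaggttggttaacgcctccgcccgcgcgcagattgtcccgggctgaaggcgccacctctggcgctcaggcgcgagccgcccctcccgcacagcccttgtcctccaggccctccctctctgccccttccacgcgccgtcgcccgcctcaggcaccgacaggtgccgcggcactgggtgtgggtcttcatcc
The match begins 219 bases before the RefSeq start site in Ccno and 87 bases before that of the Deup1 promoter shown. Another Deup1 promoter (chr9:15628257-15628556) has no match. The Deup1 match (chr9:15627920-15627933) lies inside the GENCODE span of the gene (chr9:15559864-15627933), so its place before the start holds for that RefSeq start only. In Rfx2 the match is GTAGCCGTGGAGAC (chr17:56830961-56830974, - strand), which begins at base 35 of the transcript. The forkhead pattern TGTTTAC was found in the Myb promoter and the Myb pattern AACTGNC in 1 promoter each of Trp73 and Deup1, at shares of 8.48% (with TGTTTGC counted too) and 12.8% of all promoters. No regulator's promoter held the E2F patterns TTTGGCGC, TTTCCCGC or TTTGCCGC, which occurred in 1.99% of all promoters. A match describes letters in a window and does not show binding.

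Ccno encodes cyclin O, a cyclin required for the mass production of centrioles. It measured 77.2, 138 and 74.0 CPM in CD133+ libraries and 4.12, 2.44 and 2.84 CPM in Nestin+ libraries. CD133+Nestin+ libraries gave 23.6, 6.83 and 21.9 CPM, so library 2 of that population lay near the Nestin+ range while the other two did not, and no population overlapped another. The log2 change was -4.52 ± 0.44 in Nestin+ (limma adjusted p = 0.000124) and -2.51 ± 0.44 in CD133+Nestin+ cells (limma adjusted p = 0.0131) against CD133+ cells, and 2.01 ± 0.44 in CD133+Nestin+ against Nestin+ cells (limma adjusted p = 0.0347). The fall in CD133+Nestin+ cells was not called without CD133+ library 2 or 3 (highest limma adjusted p 0.0765). The difference from Nestin+ cells was called only without CD133+ library 2 or CD133+Nestin+ library 2 among the 9 fits that each left out 1 library, with limma adjusted p from 0.00539 to 0.161.

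Deup1 (chr9:15559864-15627933), the scaffold protein of the deuterosome, showed the widest range of the 9. Its level was 483, 1113 and 485 CPM in CD133+ libraries, 171, 106 and 164 CPM in CD133+Nestin+ libraries and 19.9, 10.4 and 14.4 CPM in Nestin+ libraries. The mean was 46.5-fold lower in Nestin+ and 4.71-fold lower in CD133+Nestin+ than in CD133+ cells, and no population overlapped another. The log2 changes were -5.37 ± 0.37 (limma adjusted p = 3.35e-05), -2.14 ± 0.37 (limma adjusted p = 0.0124) and, in CD133+Nestin+ against Nestin+ cells, 3.23 ± 0.37 (limma adjusted p = 0.0023). These 3 calls held in each fit that left out 1 library. Its paralog Cep63, which works at the ordinary centrosome, changed by -0.38 ± 0.32 in Nestin+ and -0.14 ± 0.32 in CD133+Nestin+ against CD133+ cells, with 95% intervals of -1.09 to 0.33 and -0.85 to 0.57. Cep63 shares 239 exon bases with Anapc13 on the opposite strand.

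Trp73 and Myb, which act between the geminin family proteins and the ciliary factors, set CD133+Nestin+ cells apart from Nestin+ cells but did not pass the test against CD133+ cells. Trp73, a p53 family member that binds Foxj1 and other ciliary regulators' genes, measured 36.2, 66.5 and 34.7 CPM in CD133+, 24.5, 29.7 and 28.9 CPM in CD133+Nestin+ and 3.26, 2.64 and 2.96 CPM in Nestin+ libraries. The populations did not overlap. Its log2 change was -3.50 ± 0.30 in Nestin+ against CD133+ (limma adjusted p = 6.86e-05), 2.86 ± 0.30 in CD133+Nestin+ against Nestin+ (limma adjusted p = 0.00181) and -0.65 ± 0.30 in CD133+Nestin+ against CD133+ (95% interval -1.30 to 0.01, limma adjusted p = 0.406).

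Myb, a transcription factor known for blood progenitors that also acts early in multiciliated differentiation, measured 44.9, 105 and 48.7 CPM in CD133+ and 28.1, 74.5 and 46.7 CPM in CD133+Nestin+ libraries, which overlapped. Nestin+ libraries held 4.23, 8.27 and 3.91 CPM and lay below both. Library 2 was the highest in each population. The log2 change was -3.33 ± 0.43 in Nestin+ against CD133+ (limma adjusted p = 0.000668) and 2.93 ± 0.43 in CD133+Nestin+ against Nestin+ (limma adjusted p = 0.00512). Between CD133+Nestin+ and CD133+ it was -0.40 ± 0.43 (95% interval -1.35 to 0.55). Trp73 shares 280 exon bases with the antisense gene Trp73os and Myb 559 with the antisense gene Gm26577, and since it is not given whether reads were counted by strand, reads of each pair cannot be told apart. The same holds for Cdc20b and Cep63 above. The values do not separate the isoforms of Trp73, which lies at chr4:154056253-154140208, and Myb lies at chr10:21124935-21160984.

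Foxj1 (chr11:116330704-116335399), the forkhead factor that switches on motile cilia genes, measured 184, 421 and 177 CPM in CD133+ libraries and 149, 127 and 185 CPM in CD133+Nestin+ libraries, which overlapped. It measured 40.4, 28.0 and 27.4 CPM in Nestin+ libraries, all below the others, and so kept 12.3% of its CD133+ mean there, a larger share than Mcidas, Ccno or Deup1 kept (2.15% to 3.38%). The log2 change was -2.89 ± 0.35 in Nestin+ (limma adjusted p = 0.00046) and -0.65 ± 0.35 in CD133+Nestin+ cells (95% interval -1.42 to 0.12, limma adjusted p = 0.491) against CD133+ cells. Against Nestin+ cells, CD133+Nestin+ cells were higher by 2.24 ± 0.35 (limma adjusted p = 0.00639).

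The RFX factors Rfx2 (chr17:56775897-56831013) and Rfx3 (chr19:27761721-28011166) bind X-boxes in genes of both primary and motile cilia. Their log2 changes were smaller in size than those of Foxj1 in both comparisons with Nestin+ cells. In CD133+Nestin+ against CD133+ cells they had the opposite sign, 0.39 ± 0.35 and 0.51 ± 0.25, where Foxj1 had -0.65 ± 0.35. No test compared these changes between genes. Rfx2 measured 66.5, 135 and 80.4 CPM in CD133+, 82.7, 156 and 129 CPM in CD133+Nestin+ and 28.3, 33.9 and 50.8 CPM in Nestin+ libraries. Its Nestin+ values lay below the rest, with log2 changes of -1.27 ± 0.35 against CD133+ (limma adjusted p = 0.0354) and, for CD133+Nestin+ against Nestin+, of 1.67 ± 0.35 (limma adjusted p = 0.0263). The first call ended with median centring or quantile normalization (limma adjusted p = 0.0543 and 0.0671) and without any of 5 single libraries (CD133+ libraries 2 and 3, Nestin+ libraries 1 and 2, CD133+Nestin+ library 3) and the other without any of 4 (Nestin+ libraries 1 and 2, CD133+Nestin+ libraries 2 and 3), with limma adjusted p up to 0.164 and 0.127.

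Rfx3 was the 1 regulator that passed no test. It measured 60.5, 66.2 and 58.5 CPM in CD133+, 65.0, 75.4 and 60.7 CPM in Nestin+ and 69.2, 122 and 82.3 CPM in CD133+Nestin+ libraries. CD133+Nestin+ values lay above the CD133+ values without overlap, while Nestin+ values overlapped both. The log2 change was 0.11 ± 0.25 in Nestin+ (95% interval -0.44 to 0.67) and 0.51 ± 0.25 in CD133+Nestin+ cells (95% interval -0.04 to 1.07, limma adjusted p = 0.441) against CD133+ cells.

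**Figure D2:**
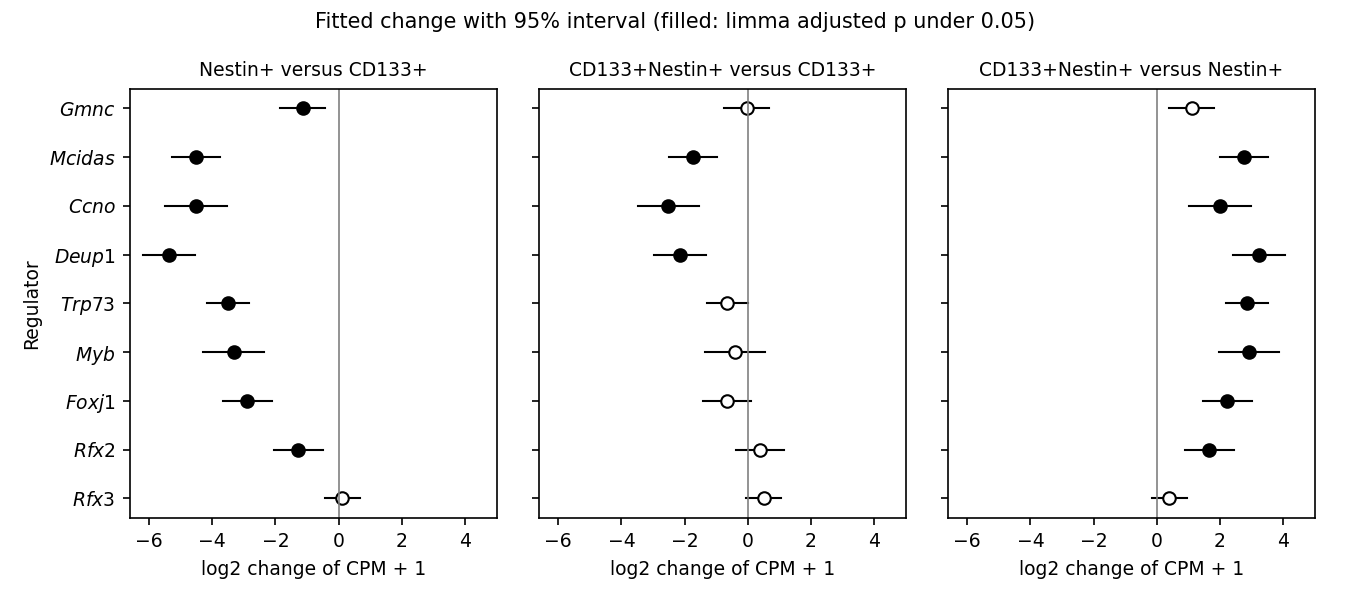
Fitted log2 change of CPM + 1 for each regulator in the 3 comparisons, as a point with its 95% interval; filled points have a limma adjusted p under 0.05. In CD133+Nestin+ against CD133+ cells the filled points are Mcidas at -1.75, Ccno at -2.51 and Deup1 at -2.14.

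The count of non-overlapping regulators equalled that of calls in Nestin+ against CD133+ cells and exceeded it in the other comparisons. In Nestin+ against CD133+ cells, 8 of the 9 did not overlap, all of them lower, where 33.0% of all tested genes did not overlap. Between CD133+Nestin+ and Nestin+ cells, 8 did not overlap, all higher, where 17.3% of all genes did not overlap. Between CD133+Nestin+ and CD133+ cells, Mcidas, Ccno, Trp73 and Deup1 were lower and Rfx3 was higher without overlap, where 17.5% of all genes did not overlap. Libraries with the same sort number were also set against each other. CD133+Nestin+ lay below CD133+ in 3 of 3 numbers for Mcidas, Ccno, Deup1, Trp73 and Myb. It did so in 2 for Foxj1, in 1 for Gmnc and in 0 for Rfx2 and Rfx3. The share of all genes that lay below in 3 of 3 numbers was not computed.

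Divided by the exon length of each gene, the levels ranked differently in the 3 populations. In CD133+ cells Deup1 led at 209.6 ± 109.7 CPM per kilobase (SD, n = 3), followed by Foxj1 at 99.3 ± 53.1, Mcidas at 51.5 ± 26.4 and Ccno at 37.7 ± 14.1, and each of these neighbours overlapped the next in range. In CD133+Nestin+ cells Foxj1 at 58.6 ± 11.2 CPM per kilobase and Deup1 at 44.4 ± 10.7 overlapped, and both lay above Rfx2 at 16.7 ± 5.04 and Mcidas at 14.0 ± 1.84. In Nestin+ cells Foxj1 led at 12.2 ± 2.78 CPM per kilobase without overlap, ahead of Rfx3 at 6.08 ± 0.683, Rfx2 at 5.15 ± 1.60 and Deup1 at 4.50 ± 1.44, which overlapped from one to the next. Gmnc was last in all 3 populations, at 0.354, 0.353 and 0.0726 CPM per kilobase in CD133+, CD133+Nestin+ and Nestin+ cells, without overlap with the gene above it.

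Each regulator was also set against Foxj1 within its own library, where both genes share the depth and the scaling. The quantity is log2(CPM + 1) of the gene minus that of Foxj1, given as mean ± SD over 3 libraries. For Mcidas it was -1.07 ± 0.05 in CD133+ cells, -2.17 ± 0.10 in CD133+Nestin+ cells and -2.69 ± 0.21 in Nestin+ cells. For Deup1 it was 1.41 ± 0.03, -0.08 ± 0.24 and -1.07 ± 0.24 in the same order, and the values of the 3 populations overlapped neither for Mcidas nor for Deup1. For Ccno it was -1.36 ± 0.21, -3.22 ± 0.74 and -2.99 ± 0.09, where CD133+Nestin+ and Nestin+ values overlapped. CD133+ library 2, which had the highest level of all 3 genes and of Foxj1, did not stand apart in the ratios of Mcidas (-1.11) and Deup1 (1.40). Its ratio of Ccno (-1.60) lay below those of CD133+ libraries 1 and 3 (-1.24 and -1.24).

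The ratios of these 3 genes to Foxj1 were lower in every CD133+Nestin+ library than in every CD133+ library, by mean differences of -1.10 for Mcidas, -1.49 for Deup1 and -1.86 for Ccno. The ratio of Trp73 to Foxj1 was -2.42 in both populations (difference 0.0039, exact permutation p = 0.9), and that of Myb differed by 0.25 with overlap (exact permutation p = 0.8). Relative to Foxj1, Rfx2 and Rfx3 were higher in the CD133+Nestin+ libraries than in the CD133+ ones without overlap, by 1.04 and 1.17. Of 24 such comparisons (8 genes, 3 pairs of populations), 17 did not overlap (15 with a pseudocount of 0.1). The share of all genes whose ratio to Foxj1 does not overlap was not computed. All 24 ratios share Foxj1, which itself changed, so a steady gene can also separate. Relative to Foxj1, Rfx3 differed by 3.00 without overlap in Nestin+ against CD133+ libraries, where its own log2 change was 0.11. Among the 17 was the scarce Gmnc, lower relative to Foxj1 in CD133+Nestin+ than in Nestin+ libraries by a mean difference of -1.13, which became 0.086 with a pseudocount of 0.1. Each of those has an exact two-sided permutation p of 0.1, the smallest that 3 libraries against 3 allow, and 0.141 after Benjamini-Hochberg adjustment over the 24, so none can pass 0.05.

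**Figure D3:**
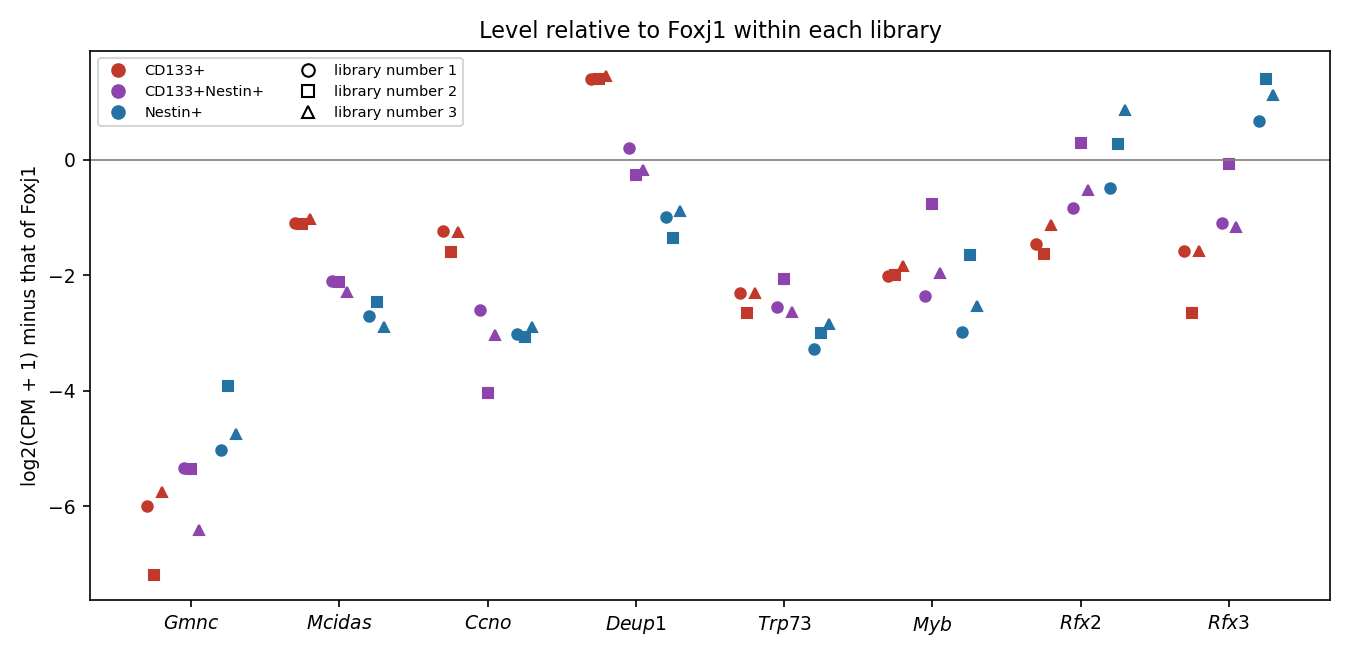
Difference between log2(CPM + 1) of each regulator and that of Foxj1 in the same library, by population (colour) and library number (symbol). Mcidas, Ccno and Deup1 sit highest relative to Foxj1 in CD133+ libraries, while Rfx2 and Rfx3 sit lowest there.

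Among 19 genes of centriole assembly that are not regulators in the list above, 6 fell in Nestin+ against CD133+ cells and none rose. Of all tested genes 9.42% were called lower there and 2.45% higher. The median log2 change of the 19 was -1.26, and 14 had an unadjusted p under 0.05. The count of falls was 4 to 9 when 1 library was left out and 14 with the sort number as a block. That block called 2116 of the 16143 tested genes lower. Calls in later lists stand against the shares given above for each comparison. No share of all genes at an unadjusted p under 0.05 was computed for any list. Cdc20b, a Cdc20 relative that acts at the deuterosome, measured 34.2, 101 and 40.8 CPM in CD133+, 9.02, 14.0 and 8.95 CPM in CD133+Nestin+ and 0.447, 0.0979 and 0.370 CPM in Nestin+ libraries. The populations did not overlap, and the log2 changes against CD133+ cells were -5.36 ± 0.41 (limma adjusted p = 5.4e-05) in Nestin+ and -2.22 ± 0.41 (limma adjusted p = 0.0171) in CD133+Nestin+ cells. The centriolar protein genes Poc1a and Poc5 and the kinase gene Plk4, which starts the growth of a new centriole, also fell in Nestin+ cells, by log2 changes of -2.84, -2.48 and -2.22.

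Of these 19 genes, 3 fell and none rose in CD133+Nestin+ against CD133+ cells, with a median log2 change of -0.66. They were Poc1a (-1.83 ± 0.29, limma adjusted p = 0.00789), Cdc20b and Plk4 (-1.52 ± 0.32, limma adjusted p = 0.0336). The Plk4 call ended when any of 8 of the 9 libraries was left out, that of Cdc20b without CD133+ library 2 or 3 or CD133+Nestin+ library 3, and that of Poc1a in none of the 9 such fits. Against Nestin+ cells, Cdc20b alone of the 19 was higher in CD133+Nestin+ cells (3.14 ± 0.41, limma adjusted p = 0.00271), and 4 genes were with the sort number as a block. Dividing cells also express centriole genes: of 10 genes of the dividing cell none was called by limma in the 3 comparisons, with 4, 3 and 0 at an unadjusted p under 0.05 and 2 lower in Nestin+ against CD133+ cells with the block. Their summed level ranged over 484 to 1039 CPM in CD133+, 222 to 567 in CD133+Nestin+ and 171 to 448 in Nestin+ libraries, and its part in the result was not tested.

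Genes known as targets of Foxj1 and the RFX factors, those of the motile axoneme, were lowest in Nestin+ cells. Of 24 such genes 22 had a row, without Dnai1 and Dnai2. In Nestin+ against CD133+ cells 20 of the 22 fell (15 to 20 with 1 library left out, 22 with the sort number as a block), with a median log2 change of -1.91. Examples were Zmynd10, needed for dynein arm assembly (-3.75), Rsph1 of the radial spoke (-3.28) and Ccdc113 (-2.65). Against Nestin+ cells, 17 rose in CD133+Nestin+ cells (7 to 18 with 1 library left out, 22 with the block) and none fell, with a median of 1.74. Between CD133+Nestin+ and CD133+ cells none was called by limma, 2 had an unadjusted p under 0.05, and the median was -0.22. With the block 1 was called lower there, Zmynd10 (-1.21, limma adjusted p = 0.0335, and 0.0596 without the block). A test of whether their changes differ from those of the regulators was not made.

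**Figure D4:**
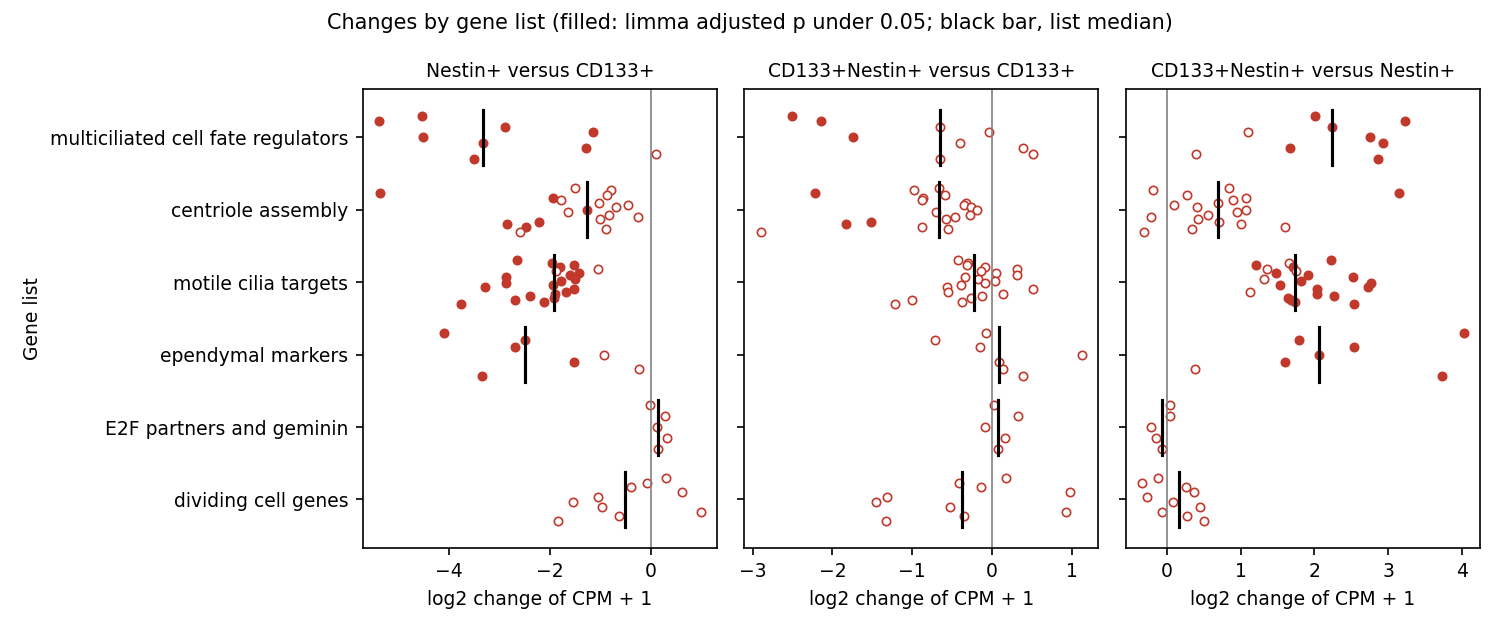
Log2 change of CPM + 1 of every tested gene of 6 lists in the 3 comparisons, with a black bar at each list's median; filled points have a limma adjusted p under 0.05. In the middle panel filled points occur in 2 of the lists drawn, the regulators (3 genes) and centriole assembly (3 genes). Among lists not drawn, 7 microglia and 5 endothelial markers fell in that comparison, and Gpr17, Gpr50 and Nes rose.

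The listed E2F and Tfdp partners of Gmnc and Mcidas were called in no comparison, and neither was geminin, a member of their family. Of E2f4, E2f5, Tfdp1, Tfdp2 and geminin (Gmnn), none was called by limma in the 3 comparisons with or without the block, none had an unadjusted p under 0.05 without it, and the log2 changes lay between -0.21 and 0.33. Gmnn measured 7.83 ± 1.80, 8.94 ± 3.43 and 8.17 ± 4.49 CPM in CD133+, Nestin+ and CD133+Nestin+ cells (SD, n = 3). Of 11 paralogs of the regulators 10 had a row, without Trp63, and none was called by limma, with 1, 2 and 1 at an unadjusted p under 0.05. With the block Rfx4 was called higher in Nestin+ (0.98, limma adjusted p = 0.0173) and in CD133+Nestin+ cells (1.04, limma adjusted p = 0.0371) against CD133+ cells. Mybl2, the Myb relative of dividing cells, changed by 0.14 ± 0.36 in Nestin+ and 0.72 ± 0.36 in CD133+Nestin+ against CD133+ cells.

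Markers of other cell types moved with the same comparisons. The 7 ependymal markers, the type in which the regulators are known to act, summed to 925 to 1821 CPM in CD133+, 1064 to 1269 in CD133+Nestin+ and 213 to 276 in Nestin+ libraries. Of these 7, 5 fell in Nestin+ against CD133+ cells, 6 rose in CD133+Nestin+ against Nestin+ cells (3 to 6 with 1 library left out), and none was called by limma between CD133+Nestin+ and CD133+ cells, where 2 had an unadjusted p under 0.05. Choroid plexus markers had a row for 3 of 10 genes, Folr1, Clic6 and Otx2, with sums of 34.8 to 42.4, 58.7 to 61.8 and 15.1 to 28.8 CPM in CD133+, CD133+Nestin+ and Nestin+ libraries. Folr1 fell in Nestin+ against CD133+ cells and rose in CD133+Nestin+ against Nestin+ cells.

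Microglia and endothelial markers were also higher in CD133+ libraries. All 7 measured microglia markers fell in both Nestin+ and CD133+Nestin+ against CD133+ cells, with sums of 707 to 2147 CPM in CD133+, 30.1 to 245 in CD133+Nestin+ and 30.3 to 86.7 in Nestin+ libraries. With 1 library left out, all 7 were called in Nestin+ cells each time, but 1 to 7 in CD133+Nestin+ cells, where the count of 1 (Tmem119) came without CD133+ library 3, counts of 3 without CD133+ library 1 or CD133+Nestin+ library 3 and a count of 4 without CD133+Nestin+ library 2. All 5 measured endothelial markers fell in both (5 and 4 to 5 with 1 library left out), with sums of 377 to 761, 28.1 to 43.4 and 15.8 to 27.4 CPM. Blood progenitor markers, listed because Myb is known from such cells, had a row for 2 of 10 genes, with sums of 20.9 to 52.8, 19.0 to 26.3 and 20.7 to 38.6 CPM. Of these, Itga2b fell in Nestin+ against CD133+ cells (-1.34, limma adjusted p = 0.0249) while Kit changed by -0.07, and in CD133+Nestin+ against CD133+ cells neither was called by limma or had an unadjusted p under 0.05 (0.06 and -0.82). Cajal-Retzius neurons, which are known to express Trp73, were read from 4 of 7 markers with sums of 78.3 to 102.9, 27.4 to 52.6 and 26.1 to 40.0 CPM. Only Calb2 among the 4 was called, lower in Nestin+ against CD133+ cells (-2.57), where Cacna2d2 changed by 1.22. None was called by limma in CD133+Nestin+ against CD133+ cells, where 2 had an unadjusted p under 0.05. With the block, 3 of the 4 were lower in Nestin+ and 1 in CD133+Nestin+ cells.

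Other marker lists ran the other way, with higher summed levels in every Nestin+ than in every CD133+ library. Of 6 oligodendrocyte precursor markers 5 rose in Nestin+ against CD133+ cells (3 to 6 with 1 library left out), with a median log2 change of 3.15 and sums of 59.9 to 139 CPM in CD133+, 113 to 451 in CD133+Nestin+ and 577 to 1067 in Nestin+ libraries. In CD133+Nestin+ cells Gpr17 (2.63) was the 1 that rose against CD133+ cells (0 to 2 with 1 library left out, 2 with the block), and Pdgfra, Sox10 and Cspg4 fell against Nestin+ cells (-2.96, -2.11 and -2.30, with 0 to 4 genes lower when 1 library was left out). Of 6 markers of tanycytes, elongated glial cells of the third ventricle wall, 5 rose in Nestin+ against CD133+ cells (3 to 5), with a median of 1.87 and sums of 62.0 to 83.0, 131 to 248 and 346 to 424 CPM. In CD133+Nestin+ cells Gpr50 rose against CD133+ cells (1.90, with 0 to 2 genes when 1 library was left out and 3 with the block) and Col23a1 fell against Nestin+ cells (-1.43, with 0 to 2 and 2). Of 5 neuron markers Dcx (2.91) and Snap25 rose in Nestin+ against CD133+ cells (3 with the block), with sums of 29.5 to 97.4, 55.7 to 141 and 131 to 184 CPM. None of the 5 was called by limma in the other comparisons, where 2 and 3 had an unadjusted p under 0.05 and the block called 0 and 2 lower.

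Of 7 neural progenitor markers Nes (1.75) and Hes5 (3.01) rose and Pax6 (-1.50) fell in Nestin+ against CD133+ cells. With 1 library left out 1 to 3 rose and 0 to 1 fell, and with the block 4 and 1. Their sums were 1558 to 5465 CPM in CD133+, 3047 to 7876 in CD133+Nestin+ and 7048 to 12511 in Nestin+ libraries. Nes alone of the 7 was called in CD133+Nestin+ against CD133+ cells, where it rose (1.94). Against Nestin+ cells none of the 7 was called by limma or had an unadjusted p under 0.05. Since the sort read the Nestin promoter, both rises of Nes were built into the design and are no separate result on progenitors. No listed marker with a row was at 0 in any library. The lowest Nestin+ values of Tmem119 (0.0327 CPM) and Cldn5 (0.0618 CPM) nevertheless lay below the floor of 3 reads. The part of these cell types in the changes of the regulators was not tested.

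Across the 9 libraries, Foxj1, Mcidas, Ccno, Trp73, Myb and Deup1 varied together, with Pearson's r of log2(CPM + 1) between 0.785 and 0.994 over their 15 pairs. Rfx3 stood apart from the other 8, with r from -0.32 to 0.49. These correlations describe 9 points that share 3 populations and 3 sort numbers, and no p is given. By the same measure over 10195 non-member genes, the gene most like each regulator was Fam92b for Foxj1 (r = 0.995), Gcnt1 for Mcidas (0.998), Plvap for Ccno (0.991), Ctsh for Deup1 (0.995), Rsph1 for Trp73 (0.998), Tsnaxip1 for Myb (0.992), Wdr31 for Rfx2 (0.989), Zfp867 for Rfx3 (0.938) and Igf1 for Gmnc (0.927). The next closest were Ift43 and Tppp3 for Foxj1, Crabp1 and Zmynd10 for Mcidas, Hyls1 and Cox6b2 for Ccno, Csrp2 and Ccdc192 for Deup1, and Dnah3 and Spag17 for Myb. For Trp73 they were Casq2 and Cacna1s, for Rfx2 Rabl2 and Ttc25, for Rfx3 Zcwpw1 and Ppp1r37, and for Gmnc Nagk and Ddit4l.

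The authors' deposited table of comparisons gives a step-up false discovery rate under 0.05 for 7 of the 9 regulators in Nestin+ against CD133+ cells, for 7 in Nestin+ against CD133+Nestin+ cells and for 2 in CD133+ against CD133+Nestin+ cells. In the authors' deposited table the 2 are Deup1 (0.0359) and Ccno (0.0443), while Mcidas has 0.0597 and, in Nestin+ against CD133+ cells, Gmnc has 0.064. Mcidas and Gmnc are thus on opposite sides of 0.05 in that table and in the limma fit given above.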

How the data were processed

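Total RNA of 9 sorted mouse libraries was sequenced (Illumina HiSeq, per the labels). The submitters' processing notes list the mm10 build, bcl2fastq, STAR 2.5.3a, limma and Partek 8.0 without saying what each did. The sources used here do not say how reads were counted. The deposited table holds values taken as CPM made by the authors, inferred from steps of 1 read. Since only 41.7% to 60.9% of low values were whole multiples of a read within 0.02 reads, reads were not recovered and count models were not used. The genes with a row made up 65.9% to 87.6% of each library's CPM. The authors' deposited table of comparisons gives, per the file headers, a p-value, a false discovery rate and a ratio of means.

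Groups came from the labels. A gene was kept when 3 or more libraries reached 1 CPM (16143, with 2186 removed). Values were transformed as log2(CPM + 1) and fitted with limma 3.58.1 (R 4.3.3), using trended, robust variances and no block, and p-values were adjusted over all genes. The procedure was tested on simulated data. The members and gene lists were chosen with earlier results of these data known. All 9 regulators were named, with up to 4 called genes of smallest p per list and comparison, Cep63, Gmnn, Mybl2 and Cdc20b in any case, and the 3 genes most correlated with each regulator among those with at least 10 CPM in their highest group. Alternatives covered the replicate block, the pseudocount (0.1), the filter (none, or 5 CPM), median centring or quantile normalization, libraries 2 and 3 only, and leaving out each library. Sort and passage numbers coincide in the labels, which do not say that they pair the samples. The main fit was therefore unpaired, and the sort number entered only as the replicate block among the alternatives. Deviations from group means had correlations of 0.204 to 0.73 in the 9 pairs of libraries of 1 number and of -0.527 to 0.314 in the 18 pairs of different numbers. Positions and exon lengths are from GENCODE M21 (GRCm38) and promoters from RefSeq. Figures were drawn with matplotlib 3.10.9.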

Additional observations from a re-analysis of the deposited data

How the results depend on the processing

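With the sort number, which is also the passage number, as a replicate block, the calls among the 9 regulators were 8 for Nestin+ versus CD133+, 3 for CD133+Nestin+ versus CD133+ and 7 for CD133+Nestin+ versus Nestin+, as without it, and the F test called 8 in place of 7. The block raised the calls over all genes from 1915, 390, 505 and, by the F test, 1534 to 3094, 776, 983 and 2656, and the block without CD133+Nestin+ library 2, chosen after seeing the data, gave 4900, 809, 1320 and 4119. Leaving out 1 library gave 1043 to 2764, 97 to 472, 173 to 663 and 863 to 2083 calls over all genes, and 6 to 8, 1 to 3, 5 to 7 and 6 to 7 among the regulators. The count of 1 in CD133+Nestin+ versus CD133+ came without CD133+ library 2 or 3. Calls of Deup1, Trp73, Myb and Foxj1 held in each of those fits. Median centring and quantile normalization ended the Nestin+ versus CD133+ calls of Gmnc and Rfx2, and moved the median of all genes there from -0.02 to 0.12 and 0.13. Libraries 2 and 3 alone gave 6, 3 and 6 calls.

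The values given next changed sign, and the cause was not tested. The change of Gmnc in CD133+Nestin+ versus CD133+ was 0.092 with median centring, 0.10 with quantile normalization, 0.021 with the block without CD133+Nestin+ library 2 and -0.20 to 0.18 with 1 library left out. With a pseudocount of 0.1, ratios to Foxj1 in CD133+Nestin+ versus Nestin+ were 0.086 for Gmnc (-1.13 with a pseudocount of 1, without overlap) and 0.0090 for Ccno, and -0.0091 for Trp73 in CD133+Nestin+ versus CD133+, and 15 of the 24 did not overlap. With 1 library left out, the ratio of Ccno in CD133+Nestin+ versus Nestin+ ran from -0.54 to 0.18, and in CD133+Nestin+ versus CD133+ that of Trp73 from -0.17 to 0.11 and that of Myb from -0.22 to 0.58. Between 17 and 19 of the 24 ratios did not overlap in those fits, and no share over all genes was computed. Gmnc, at 0.0618 to 2.72 CPM, is the regulator that depth limits most.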
